A study of Mus musculus with 6 samples.

Results

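The Tcl1 family of the mouse consists here of Tcl1 and 5 copies of Tcl1b, named Tcl1b1, Tcl1b2, Tcl1b3, Tcl1b4 and Tcl1b5. The 6 genes were found by symbol among the 55549 rows of each table, and every one of them passed the filter on low counts. The family was chosen by its counts and TPM (transcripts per 1000000) in treated against control libraries, so the differences between groups below describe these libraries and are not offered as tests. RNA was sequenced from mouse embryos at the early 2-cell stage. There were 3 control libraries and 3 libraries of embryos that were moved at 4 h after fertilization into culture medium with 40 uM ethylparaben (EtP), a preservative of the paraben class, and of which most stopped at this stage. The labels name the other group control and do not give the medium it was kept in, nor the strain, the embryos per library or the hour of collection. Whether the 3 libraries of a group had cultures of their own is not stated. The p-values therefore set group differences only against the variation among these libraries within groups, and that variation may be technical.

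TCL1 is a small beta-barrel protein without enzymatic activity. It binds the pleckstrin homology domain of AKT kinases, brings AKT molecules together at membranes and raises their activity. In humans it is known as an oncogene of T-cell and B-cell leukaemia. In the mouse, Tcl1 RNA is stored in the egg, the gene is also active in embryonic stem cells, and embryos of Tcl1-deficient mothers cleave poorly. The Tcl1b copies form a tandem array and are transcribed in the egg and early embryo.

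The 6 genes lie side by side on chromosome 12 of mm10, from 105146014 to 105222793, with no other annotated gene between them. Tcl1b2, Tcl1b1, Tcl1b5, Tcl1b3 and Tcl1b4 follow each other on the plus strand, and Tcl1 closes the row on the minus strand (105216750 to 105222793). All are annotated as protein-coding. The 5 Tcl1b copies resemble each other over their whole transcripts. In the 10 pairs of copies, 83.0% to 92.4% of aligned bases were identical, with Tcl1b3 and Tcl1b5 the most alike. Windows from 250 bases before to 50 after the RefSeq start were found for all 6 genes (RefSeq, GRCm38.p6), and pairs of Tcl1b copies matched at 66.0% to 98.6% of aligned bases. The highest value was that of Tcl1b2 and Tcl1b4.

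The stretch upstream of the RefSeq start that the copies keep can be set beside Tcl1. It is the part of the windows with a searched motif in all 5 copies. Gene bounds are those of GENCODE M21, and their first bases can differ from RefSeq starts. The stretches of Tcl1b2, Tcl1b4 and Tcl1 lie inside the GENCODE genes, past first bases of 105146014, 105201957 and, on the minus strand, 105222793. Those of Tcl1b1, Tcl1b5 and Tcl1b3 lie before the GENCODE genes. E-boxes (CANNTG, either strand, a site of basic helix-loop-helix factors) are in capitals, each sequence runs 5′ to 3′ on the strand of its gene, and the Tcl1 line holds the only E-box of its window.
Tcl1b2, chr12:105146925-105146995, plus strand: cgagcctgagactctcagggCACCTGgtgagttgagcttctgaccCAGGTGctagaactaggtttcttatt
Tcl1b1, chr12:105159596-105159666, plus strand: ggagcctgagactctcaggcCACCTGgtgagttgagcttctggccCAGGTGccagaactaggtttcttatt
Tcl1b5, chr12:105176250-105176320, plus strand: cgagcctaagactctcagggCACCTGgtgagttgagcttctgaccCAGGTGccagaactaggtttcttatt
Tcl1b3, chr12:105190935-105191005, plus strand: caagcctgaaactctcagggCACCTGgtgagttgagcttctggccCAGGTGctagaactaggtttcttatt
Tcl1b4, chr12:105202314-105202384, plus strand: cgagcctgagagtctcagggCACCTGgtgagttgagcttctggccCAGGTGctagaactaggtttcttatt
Tcl1, chr12:105222738-105222778, minus strand: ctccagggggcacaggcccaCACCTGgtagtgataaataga

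In each Tcl1b copy the E-boxes CACCTG and CAGGTG stood 25 bases apart, counted from first base to first base. That pair, in that order and at that distance, was found in 7 of 32851 windows of the table, or 0.0213%. Of the 7, 5 were the Tcl1b copies, from which the pattern was read, so their place there was fixed beforehand. A single E-box of any kind is common, being present in 72.3% of windows. The other motifs searched, on both strands, were TATAAA (13.6% of windows), TAATTG (8%), the octamer ATGCAAAT (1.74%) and TAATCC (7.06%), and no window of the 6 genes held any of them. These are matches of letters and say nothing of which factor binds.

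Likeness between copies bears on how reads are assigned. Tcl1 had whole-number counts in all 6 libraries, within a tolerance of 0.005, whereas all 5 Tcl1b copies had fractional counts in all 6. No stretch of 50 bases of the main Tcl1 transcript occurred in a transcript of a Tcl1b copy. For Tcl1b2 and Tcl1b3, 31.4% and 34.1% of 50-base windows were shared with another member, and 3.84% and 3.68% of 150-base windows. Tcl1b4 shared 4.28% of its 50-base windows, and Tcl1b1, Tcl1b4 and Tcl1b5 shared no 150-base window. Values of single Tcl1b copies therefore rest partly on how the authors divided shared fragments. Division among the copies does not touch their summed count, but sharing with genes outside the family was not examined.

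Library totals were 11173295 to 14737152 estimated counts. TMM factors, which adjust for RNA composition, ranged from 1.20 to 1.39 over control and from 0.738 to 0.833 over EtP libraries, and the tables held 25971 to 26103 genes with a count in control libraries against 19321 to 19713 in EtP. Markers of the egg and early embryo, 10 genes, summed to 11100 to 13800 TPM in control and 18600 to 19600 in EtP. Most of that sum was Dppa3, Oosp1 and Bmp15, and the groups overlapped in TPM for Zp1, Zp2, Zp3 and Zar1. Cumulus markers summed to 14.5 to 23.9 and 7.31 to 9.89 TPM, with 8 of 10 detected and Amh and Ptx3 at 0, and most of the sum was Cyp19a1 alone (11.3 to 21.3 and 6.79 to 9.52 TPM). Sperm markers summed to 21.4 to 32.7 and 5.10 to 7.04 TPM, with 5 of 8 detected and Tnp1, Spem1 and Smcp at 0, and most of it was Prm2 alone (20.5 to 30.1 and 4.90 to 6.41 TPM). The 10 markers of lymphocytes, where TCL1 is best known in humans, summed to 44.5 to 71.5 TPM in control and 57.2 to 77.2 in EtP, with Cd3e and Ptprc at or near 0. Nearly all of that was Ms4a1, and the other 9 together reached 2.43 to 4.80 TPM in control and 0.890 to 1.67 in EtP, a split made after seeing the values. The part of these differences in the results below was not tested. In such bulk libraries, fewer cells of a type and less RNA per cell cannot be told apart.

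The family was among the most abundant RNA of these embryos. Its 6 genes took 1.59%, 1.34% and 1.25% of all counts in control replicates 1, 2 and 3 and 1.79%, 1.54% and 1.84% in EtP replicates 1, 2 and 3. The widths of the 95% Wilson intervals were far below these differences (1.586% to 1.599% for control replicate 1), and they cover counting error only. The lowest EtP library lay under the highest control library, so the groups overlapped in this share. By TPM, the deposited level per transcript length, Tcl1b1 ranked between 8 and 12 among all genes in the 6 libraries and Tcl1 between 10 and 30. Tcl1b3 ranked 49 to 67, Tcl1b2 70 to 94, Tcl1b4 133 to 177 and Tcl1b5 131 to 180.

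Levels can be compared between the genes in TPM. In control embryos the order was Tcl1b1 at 7320 ± 681, Tcl1 at 4921 ± 704, Tcl1b3 at 2351 ± 183, Tcl1b2 at 1675 ± 380, Tcl1b4 at 954 ± 57.9 and Tcl1b5 at 932 ± 13.6 TPM (SD, n = 3). In EtP embryos the same genes stood at 8840 ± 707, 7540 ± 1311, 2879 ± 412, 2008 ± 157, 998 ± 146 and 985 ± 125 TPM (SD, n = 3). Neighbours in the order were separated beyond their range in control libraries except Tcl1b4 and Tcl1b5, which overlapped in both groups. In EtP libraries the ranges of Tcl1b1 (8041 to 9380 TPM) and Tcl1 (6175 to 8789 TPM) also overlapped. Tcl1b2 and Tcl1b4, whose start windows are nearly the same, differed in every library, with Tcl1b2 the higher.

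**Figure D1:**
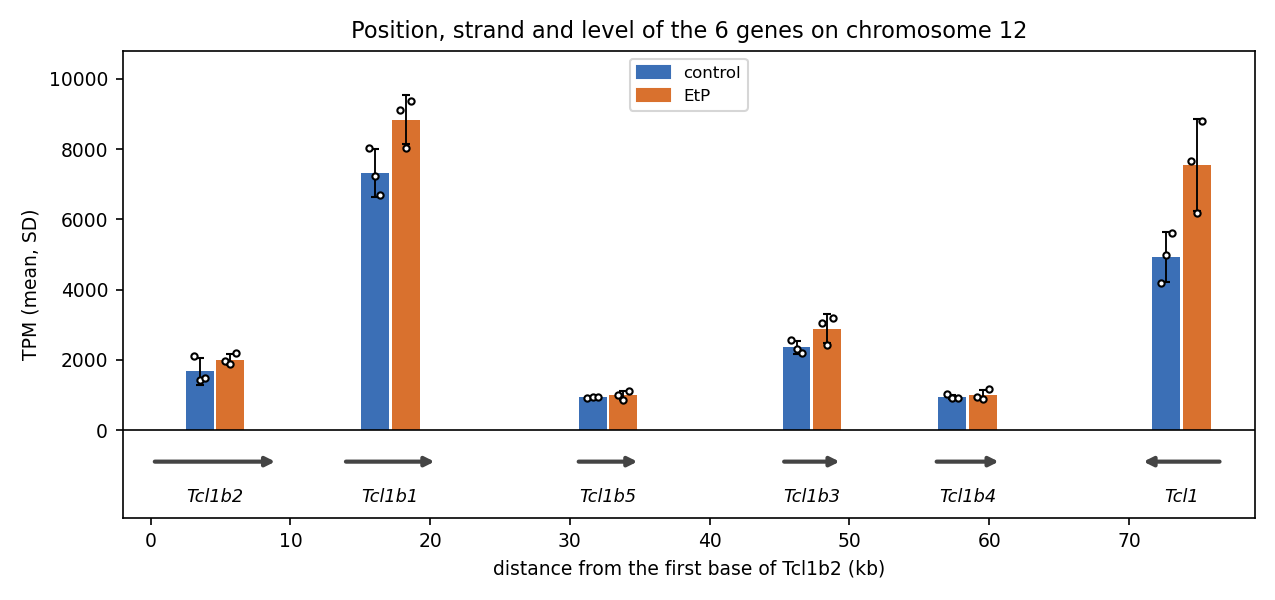
Mean TPM of each gene with its SD (bars and whiskers, n = 3 per group, white points for libraries) drawn above its place in the cluster, in kb from the first base of Tcl1b2, with arrows for strand. Tcl1b1 and Tcl1 stand far above the other 4 genes, at 4921 to 8840 TPM against 932 to 2879 TPM.

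Tcl1 differed most between the groups. Scaled by TMM, its counts per 1000000 (CPM) were 3776, 3630 and 3548 in control replicates 1 to 3 and 9662, 7606 and 9236 in EtP replicates 1 to 3. All EtP libraries were above all control libraries, with a ratio of means of 2.42. In TPM it was at 4192, 4972 and 5597 in control and 7657, 6175 and 8789 in EtP. The groups were again apart, but by less, with a ratio of 1.53. Control libraries were close together in CPM and spread more in TPM.

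Tcl1b1, the most abundant copy, had 5030, 3676 and 2893 CPM in control and 8042, 6972 and 6776 CPM in EtP. In TPM it was at 8043, 7228 and 6691 in control and 9100, 8041 and 9380 in EtP. Its groups did not overlap in CPM, but in TPM EtP replicate 2 was just under control replicate 1. Tcl1b3 was at 1733, 1268 and 1034 CPM in control and 2873, 2243 and 2499 CPM in EtP, and at 2551, 2308 and 2193 against 3039, 2411 and 3187 TPM. Here EtP replicate 2 fell below control replicate 1 in TPM.

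Tcl1b2 varied most between control libraries. It had 1408, 772 and 690 CPM there and 1828, 1719 and 1684 CPM in EtP. Control replicate 1 was the high one in both units, and in TPM, with 2112, 1426 and 1487 in control and 1965, 1877 and 2182 in EtP, it lay above 2 of the 3 EtP libraries. Its coefficient of variation in CPM was 41.1% in control and 4.31% in EtP.

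The copies of lowest level differed least. Tcl1b4 was at 769, 559 and 486 CPM in control and 959, 898 and 1012 CPM in EtP, and at 1021, 924 and 917 against 939, 891 and 1164 TPM. Tcl1b5 was at 629, 521 and 449 CPM in control and 953, 804 and 875 CPM in EtP, and at 917, 938 and 942 against 997, 855 and 1103 TPM. Both were apart in CPM and overlapped in TPM, with ratios of mean TPM of 1.05 and 1.06.

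**Figure D2:**
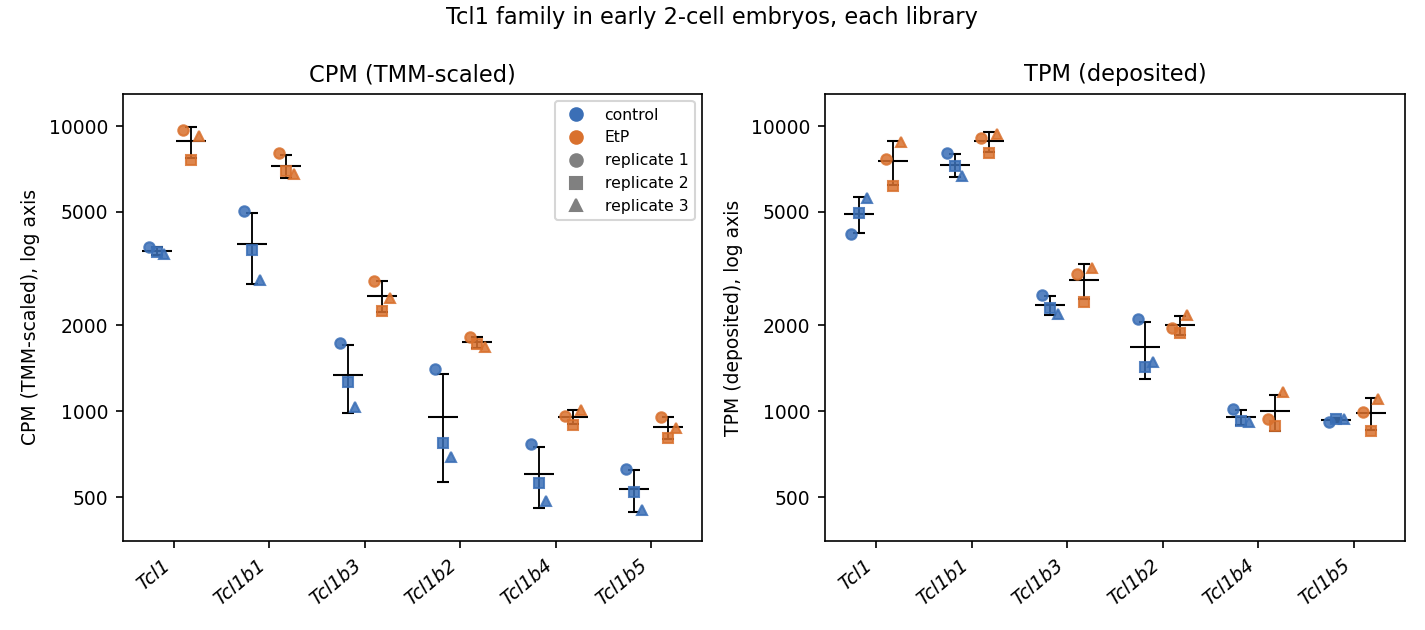
Each library's value of the 6 genes in TMM-scaled CPM (left) and deposited TPM (right), on log axes, with the mean and SD of each group (n = 3) as black bars and the replicate given by the symbol. In CPM no gene's groups overlap, and in TPM only Tcl1 has all EtP libraries above all control libraries.

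In the edgeR fit over all 14373 tested genes, the log2 fold change of EtP over control was 1.27 ± 0.20 for Tcl1 (SE, n = 3 per group). It was 0.91 ± 0.24 for Tcl1b1, 0.92 ± 0.24 for Tcl1b3, 0.87 ± 0.28 for Tcl1b2, 0.72 ± 0.21 for Tcl1b5 and 0.66 ± 0.22 for Tcl1b4. The fit called 6 of 6 members higher, where 12.5% of all tested genes were called higher, 18.1% lower and 30.6% in either direction at a Benjamini-Hochberg adjusted p below 0.05. Because this comparison led to the choice of the family, nothing is read from that count. Likewise all 6 were higher in EtP with no overlap in CPM, which held for 19% of tested genes (27.9% were lower with no overlap). In TPM 1 of 6 was, beside 6.74% of tested genes higher and 50.4% lower with no overlap. Several of the calls were lost when 1 library was left out, which also leaves fewer libraries to compare, whatever that library holds. The fit called 1 member higher without control replicate 2 or without EtP replicate 1. Over all genes it then called 1295 of 14828 and 1096 of 15556 higher, against 1798 of 14373 with all libraries. It called 3 members without control replicate 3 or EtP replicate 3, beside 1961 of 14768 and 1463 of 15538 genes. Without EtP replicate 2 it called 4, beside 1211 of 15670 genes. All 6 were called without control replicate 1, beside 2637 of 14948 genes.

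The size of the difference depended on how libraries were scaled. The median log2 fold change of the members was 0.89 with TMM and 0.18 with library size alone, where the median of all genes moved from -0.19 to -0.92. With library size alone Tcl1 was at 0.55 ± 0.18, Tcl1b3 at 0.20 ± 0.21, Tcl1b1 at 0.19 ± 0.20, Tcl1b2 at 0.16 ± 0.24, Tcl1b5 at 0.00 ± 0.19 and Tcl1b4 at -0.05 ± 0.20 (SE). So the direction of Tcl1b4 turned, and Tcl1b5 was at 0.00. With library size alone 1 of 6 members, Tcl1, was called higher, beside 3.79% of all tested genes called higher and 53.0% lower. Set against the median of all genes, the members were 0.85 to 1.46 higher on the log2 scale with TMM and 0.87 to 1.46 higher with library size alone. That offset moved with the genes kept, to 0.57 to 1.18 at 10 CPM or more in 3 libraries and 1.5 to 2.11 with no filter beyond 1 count. Over all genes, TMM gave 1798 higher and 2601 lower calls, and library size alone gave 545 and 7617.

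**Figure D3:**
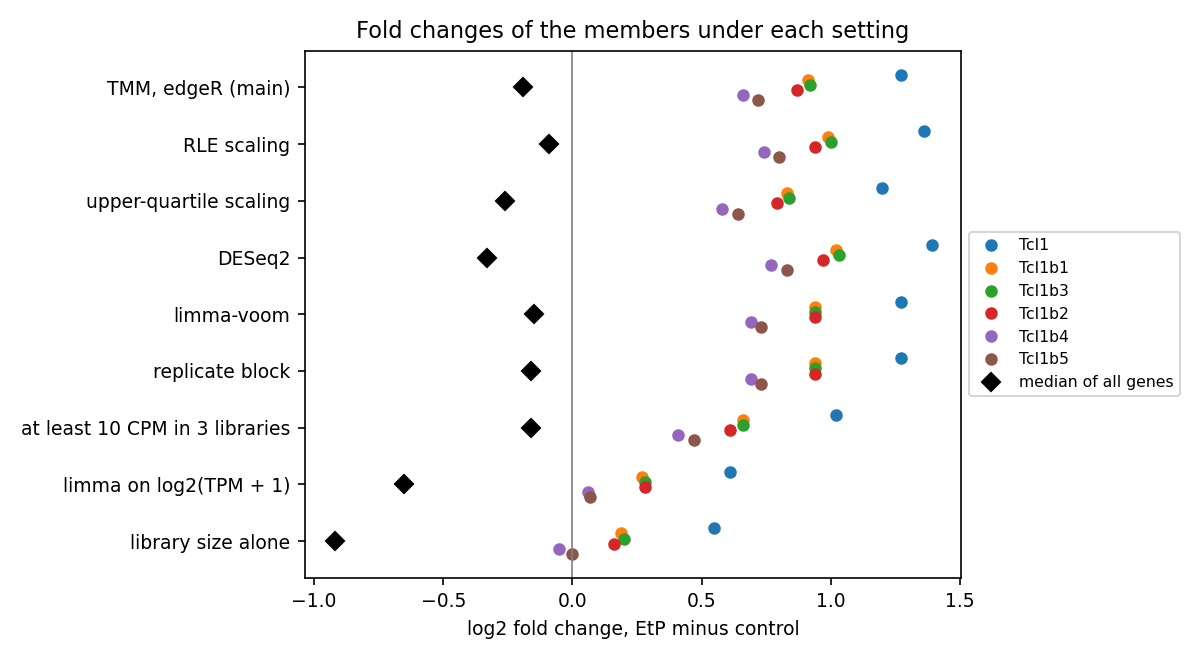
Log2 fold changes (EtP minus control) of the 6 genes (coloured points) and the median of all genes tested (black diamonds) under 9 settings. Members and median shift together between scalings, Tcl1 stays the highest of the 6 in each setting shown, and Tcl1b4 and Tcl1b5 come down to about 0 with library size alone.

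Most genes at least as abundant as the lowest member were called higher in EtP with TMM scaling. There were 195 tested genes with a mean CPM at least that of the lowest member, a limit set after seeing the data. Of these, 148 (75.9%) were called higher and 3 (1.54%) lower, beside 12.5% and 18.1% of all tested genes. The median log2 fold change of the 195 was 1.04. The member median of 0.89 lay below it. The mean was taken over all 6 libraries, so genes raised in EtP passed the limit more easily, and the 6 members were among the 195. Calls in that set were not counted with library size alone. Of the 10 egg and early embryo markers 8 were called higher, with a median of 0.97, beside 12.5% of all tested genes. With library size alone 3 were, with a median of 0.25, beside 3.79% of all tested genes.

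Ratios within a library do not depend on how libraries are scaled. Tcl1 over the summed Tcl1b copies, in TPM, was 0.286, 0.388 and 0.458 in control replicates 1 to 3 and 0.477, 0.439 and 0.517 in EtP replicates 1 to 3. The mean was 0.377 ± 0.0862 in control and 0.478 ± 0.0389 in EtP (SD, n = 3), and control replicate 3 was above EtP replicate 2. The makeup of the Tcl1b RNA was steady. Tcl1b1 held 55.3% ± 0.898 of the summed Tcl1b TPM in control and 56.3% ± 1.06 in EtP, and Tcl1b3 held 17.8% ± 0.316 and 18.3% ± 0.989. The share of Tcl1b2 was 12.6% ± 1.69 and 12.8% ± 0.542, and that of Tcl1b5 7.09% ± 0.746 and 6.26% ± 0.209 (SD, n = 3). For these copies the groups overlapped. The share of Tcl1b4 was 7.22% ± 0.264 in control and 6.34% ± 0.491 in EtP (SD, n = 3). Its groups were apart by a small gap, from 6.97% in the lowest control library to 6.84% in the highest EtP library. The shares within a library are tied to each other, and each rests partly on how the authors divided shared fragments.

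The deposited gene length is a mean of transcript lengths weighted by the estimated share of each, so for genes with 2 annotated transcripts it gives the share of the longer one. Table lengths equalled GENCODE M21 for all 33996 genes with a single transcript. For Tcl1b1, with transcripts of 664 and 1040 bases, the longer made up 82.1% ± 0.866 in control and 84.2% ± 1.42 in EtP. For Tcl1b4, with 1031 and 1465 bases, the longer made up 26.7% ± 2.31 in control and 22.4% ± 3.00 in EtP (SD, n = 3). Groups overlapped for both genes.

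Mtcp1, on the X chromosome, encodes the other TCL1-type protein of the mouse and was nearly absent. It had 1.44, 0.846 and 2.79 CPM in control replicates 1 to 3 and 0.386, 0.111 and 0.331 CPM in EtP. It was lower in EtP in all libraries, by a log2 fold change of -2.53 ± 0.63 (edgeR adjusted p = 0.0122), and the call was lost without EtP replicate 2 (edgeR adjusted p = 0.0639). Mtcp1 overlaps Cmc4 on the same strand over 6141 bases, so that fragments of the common part may be divided between them. Cmc4, a mitochondrial intermembrane space protein gene, averaged 28.9 ± 11.0 CPM over control and 37.3 ± 4.30 CPM over EtP libraries (SD, n = 3), with an edgeR adjusted p = 0.346.

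AKT kinase genes, whose proteins TCL1 binds, had far lower counts. Akt1 was at 13.1, 29.6 and 43.9 CPM in control replicates 1 to 3 and 18.2, 28.1 and 28.7 CPM in EtP, with overlapping groups. Akt2 was at 14.6, 19.0 and 23.3 CPM in control and 15.0, 23.7 and 16.6 CPM in EtP, also with overlap. Log2 fold changes were -0.21 ± 0.38 for Akt1 and -0.05 ± 0.27 for Akt2, neither past the threshold (edgeR adjusted p = 0.712 and 0.911). With library size alone, Akt2 was called lower (log2 fold change -0.80, edgeR adjusted p = 0.0405).

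Of 48 genes of the AKT pathway in 3 lists, 46 were tested, 6 were called higher (13%) and 1 lower (2.17%), beside 12.5% and 18.1% of all tested genes. The share of higher calls was thus close to that of all genes. The median log2 fold change was -0.09, where that of all genes was -0.19. Among upstream genes, Mapkap1, a subunit of the mTOR complex that phosphorylates AKT, rose from 181 ± 7.29 to 356 ± 39.5 CPM (log2 fold change 0.97 ± 0.20, edgeR adjusted p = 0.00434). Pik3r3, a regulatory subunit of phosphoinositide 3-kinase, rose by 0.86 ± 0.20 and Pik3cd, a catalytic subunit, by 0.86 ± 0.29 (edgeR adjusted p = 0.00898 and 0.0444). Among downstream genes, Wee2, an egg kinase that inhibits CDK1, rose from 638 ± 105 to 1134 ± 136 CPM (edgeR adjusted p = 0.0143). The ribosomal S6 kinase gene Rps6kb1 rose by 0.66 ± 0.20 and the phosphodiesterase gene Pde3a by 0.68 ± 0.23 (edgeR adjusted p = 0.0302 and 0.0414).

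Ppp2ca, the catalytic subunit of protein phosphatase 2A, which can dephosphorylate AKT, was the only gene of the 3 lists called lower in this fit, from 20.3 ± 7.21 to 11.1 ± 1.46 CPM (log2 fold change -0.87 ± 0.30, edgeR adjusted p = 0.0494). The calls of Mapkap1 and Pik3r3 held when any 1 library was left out, with a highest edgeR adjusted p of 0.0266 and 0.0482. Those of Pik3cd, Wee2, Rps6kb1, Pde3a and Ppp2ca were each lost without at least 1 library (highest edgeR adjusted p of 0.128, 0.0652, 0.0895, 0.117 and 0.177). The higher calls depended on the scaling. With library size alone Mapkap1, Pik3r3, Pik3cd and Wee2 stayed at 0.24, 0.12, 0.11 and 0.09 on the log2 scale without a call, Rps6kb1 and Pde3a turned to -0.07 and -0.06, and Ppp2ca was called lower at -1.63 (edgeR adjusted p = 0.00222). With library size alone none of the 46 was higher by edgeR (0 also at an unadjusted p below 0.05, where 7 were with TMM and 9 with DESeq2) and 25 were lower, beside 3.79% and 53.0% of all tested genes.

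**Figure D4:**
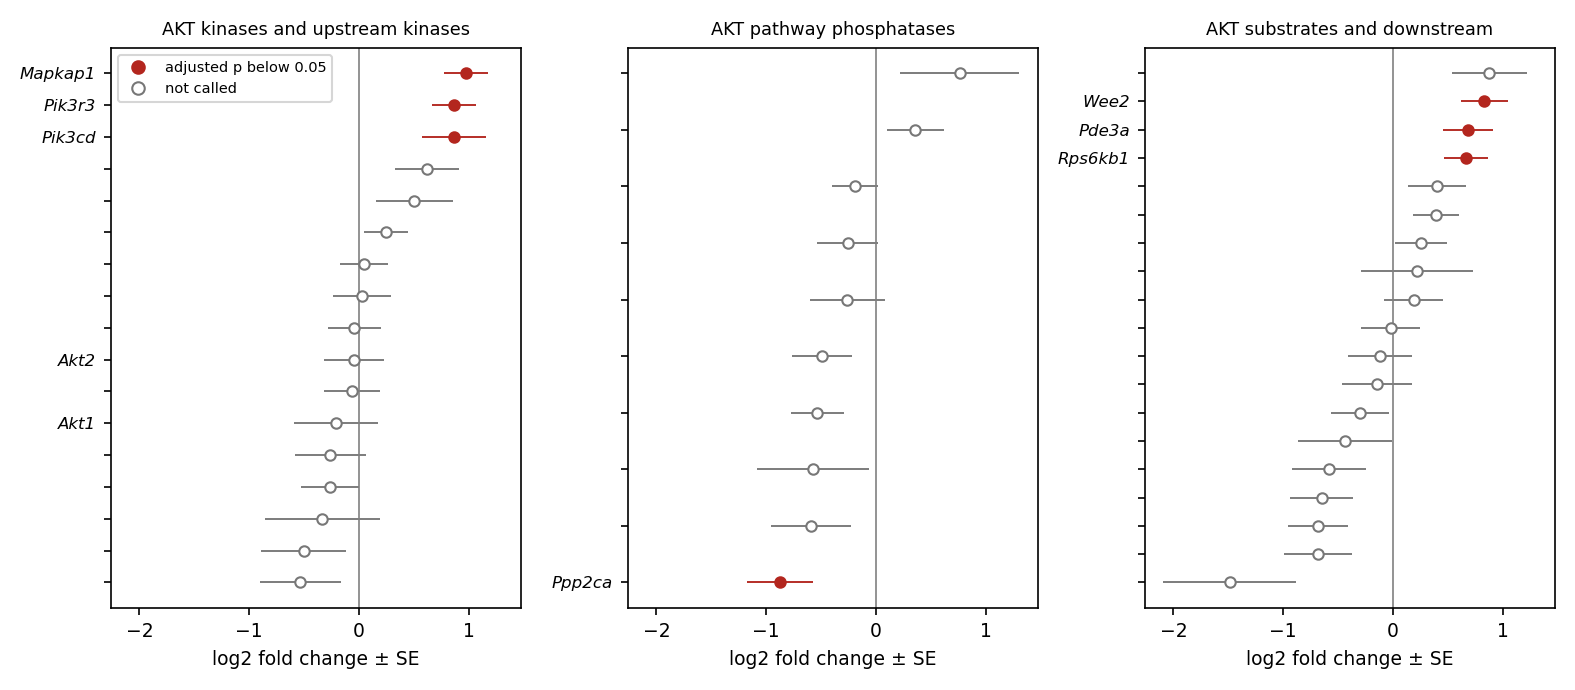
Log2 fold change (EtP minus control, TMM scaling) with its SE for the 46 tested genes of 3 AKT pathway lists, filled red where the edgeR adjusted p was below 0.05; names are given for called genes, Akt1 and Akt2. The 6 called higher are split between upstream kinases and downstream genes, Ppp2ca is the one called lower, and Akt1 and Akt2 lie slightly below 0.

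Of 8 transcription factor genes and chromatin genes linked to Tcl1 in embryonic stem cells, 6 were tested, with 1 called higher and 1 lower (16.7% each, beside 12.5% and 18.1% of all tested genes). With library size alone 3 were called lower, and Nanog was not called (0.40, edgeR adjusted p = 0.259). Nanog had 12.8, 11.2 and 6.88 CPM in control and 21.3, 29.8 and 16.2 CPM in EtP (log2 fold change 1.12 ± 0.31, edgeR adjusted p = 0.0205). Dppa4 had 6.60, 8.57 and 5.39 CPM in control and 3.09, 3.20 and 4.22 CPM in EtP (-0.96 ± 0.30, edgeR adjusted p = 0.0348). Each was apart between groups, and each call was lost without some single libraries, with a highest edgeR adjusted p of 0.0905 and 0.188. Pou5f1, which binds the Tcl1 gene in embryonic stem cells, averaged 99.4 ± 18.4 CPM over control and 125 ± 17.0 CPM over EtP libraries (SD, n = 3), without a call (edgeR adjusted p = 0.294).

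Genes around the cluster did not share the levels of the family. Within 250 kb of its ends, Glrx5, which serves iron-sulfur cluster assembly, was the only protein-coding gene above 10 CPM. It fell from 51.4 ± 5.74 to 20.1 ± 5.14 CPM (log2 fold change -1.36 ± 0.25, edgeR adjusted p = 0.00283). Gm47672, a processed pseudogene 10.6 kb before Tcl1b2 whose reads may belong to its parent gene, fell from 3.51 ± 1.30 to 1.45 ± 0.291 CPM (edgeR adjusted p = 0.0310). Lower calls were common in the same fit, at 18.1% of all tested genes, and 53.0% with library size alone. Syne3, a nuclear envelope gene, was at 2.34 ± 0.943 and 2.14 ± 0.5 CPM, Snhg10 at 1.85 ± 0.528 and 1.60 ± 0.580 CPM and Gm28875 at 1.01 ± 0.915 and 0.695 ± 0.474 CPM, none called (edgeR adjusted p = 0.846, 0.735 and 0.633). Tunar and D430019H16Rik, on the other side, had at most 7 counts in any library and were not tested.

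The genes whose profile lay nearest to that of Tcl1 were sought among 6683 others by the root mean square difference of log2(CPM + 1) over 6 libraries, each profile centred on its control mean. Outside predicted loci the nearest were Kif22, a chromosome-binding kinesin (0.08), Scamp2, a membrane carrier protein of secretion (0.09), the zinc transporter Slc39a10 (0.094), the proton pump subunit Atp6v1c1 (0.094) and Ccdc186 (0.096). Kif22, for example, had 44.2, 47.3 and 46.5 CPM in control and 128, 96.6 and 130 CPM in EtP, with EtP replicate 2 the lowest as for Tcl1. The Tcl1b copies were farther from Tcl1 than these genes, at 0.302 for Tcl1b3 to 0.45 for Tcl1b4. Tcl1b3, the nearest copy, took place 412 of 6683 and Tcl1b4, the farthest, place 1041, so all copies were nearer to Tcl1 than most genes. The distance takes in the difference between groups by which the family was chosen.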

How the data were processed

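Polyadenylated RNA of 6 mouse embryo libraries was amplified by Smart-seq2, per the labels' protocols, a method that as a rule does not mark strand. The submitters' processing notes name cutadapt 1.16, STAR and mm10, and no counting program. The deposited expected counts are the authors' estimates per gene and were rounded for the tests. The authors scaled the deposited TPM values for transcript length and depth, and the deposited FPKM values were not tested. Gene lengths, in bases, were used as deposited. Gene bounds came from GENCODE M21, on the same assembly, and start windows from RefSeq.

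EtP was compared with control by edgeR 4.0.16 (R 4.3.3) with filterByExpr, TMM, a robust quasi-likelihood model of group alone, and Benjamini-Hochberg adjustment at 0.05 over all tested genes. Each SE was taken as the size of the log2 fold change over the root of its F statistic. CPM is TMM-scaled, and values are mean ± SD. The step was tested on simulated data with as many genes raised as lowered and no shift in RNA composition between groups. That simulation therefore does not bear on the choice of scaling. The alternatives were DESeq2 1.42.0, limma 3.58.1 and the settings in the closing section. Members, gene lists and the naming rule were chosen with earlier results of these data known. Named genes were the members, Mtcp1, AKT kinase genes, up to 5 called genes per pathway list with a mean of at least 5 CPM, tested neighbours and the 5 genes nearest to Tcl1; other names were chosen after their values were seen, and some genes of the lists are not reported here by name. Sequences came from RefSeq (GRCm38.p6), aligned with Biopython 1.88, and figures from matplotlib 3.10.9.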

Additional observations from a re-analysis of the deposited data

How the results depend on the processing

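Over 103 recomputed fold changes of single members, 101 were above 0. All came from the same 6 libraries and from the contrast that led to the choice of the family, so nothing is read from that tally. The exceptions came with library size alone, where Tcl1b4 was at -0.05 and Tcl1b5 at 0 on the log2 scale. By limma on log2(TPM + 1) these 2 copies were at 0.06 and 0.07. The median of the members was 0.18 with library size alone, 0.28 by limma on log2(TPM + 1), 0.28 on log2(TPM + 0.1), and 0.75 to 1.24 when 1 library was left out. Genes called higher and lower were 545 and 7617 with library size alone, 978 and 1454 at 10 CPM or more in 3 libraries, 683 and 5680 on log2(TPM + 1) and 675 and 5565 on log2(TPM + 0.1). Leaving out 1 library gave 1096 to 2637 higher and 1659 to 2887 lower. AKT pathway genes called higher and lower were 0 and 25 with library size alone, 2 and 3 at 10 CPM, 1 and 12 on log2(TPM + 1), 1 and 10 on log2(TPM + 0.1), and 2 to 7 and 1 to 5 when 1 library was left out. Their lower calls were 4 with no filter, 2 by DESeq2, 3 with the block, and 0 with RLE and by limma-voom (2 and 3 at an unadjusted p below 0.05). The cause of these shifts was not tested. Same-numbered libraries deviated together at correlations of 0.184, 0.005 and 0.363 for replicates 1, 2 and 3. Control replicates 1 and 3 correlated best with their own number. Control replicate 2 was near 0 with EtP replicates 1, 2 and 3 (0.01, 0.005 and -0.014). These values cannot settle whether same-numbered libraries share a batch, and the main fit did not pair them. With the replicate block 2295 genes were higher and 3022 lower, the AKT pathway gave 7 and 3, and 6 of 6 members were called higher. That count was also 6 with RLE, no filter, DESeq2, limma-voom and unrounded counts, 4 with upper-quartile scaling, and 1 with library size alone, at 10 CPM and on either log2(TPM). Summing the Tcl1b copies gave them 1 fold change of 0.87. At these depths counting error is small for the members and large for Mtcp1.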

Other observations

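Ms4a1, which encodes the B-cell surface protein CD20, was detected in every library at 42.1 to 66.7 TPM in control and 56.3 to 75.5 TPM in EtP, while the other 9 lymphocyte markers together stayed at or below 4.80 TPM. It was singled out after its values were seen.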
